A study of Arabidopsis thaliana with 16 samples.

Results

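AT5G52810 and SIS are 2 of the 691 Arabidopsis genes that were measured by a probe of their own on these arrays. They were taken by their probes, and they had been picked because their intensities were higher in the psag mutant than in wild type (WT) in an earlier pass over the same arrays. Their levels and differences are therefore a description and carry no test. The psag plants lack PSI-G, one of the small membrane-bound proteins of photosystem I, and both psag and WT are of ecotype Columbia 0. Total RNA was measured on 16 arrays, 8 psag and 8 WT, each numbered 1 to 8. Allele, tissue, age and light condition are not named in the labels. All sample titles begin with the same number, whose meaning is not given. Nor is it said which replicates share plants or RNA, or whether neighbouring numbers are duplicate spots of the same array. Each numbered sample is called an array here. Arrays with neighbouring numbers (1 and 2, 3 and 4, 5 and 6, 7 and 8) were the closest of their genotype for 14 of 16 arrays, so each such pair was averaged as 1 measurement, which gives 4 measurements per genotype. The exceptions, WT replicates 3 and 4, were closer to WT replicates 1 and 2 and form 1 averaged measurement all the same.

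AT5G52810 is the locus of SARD4, a name that comes from the literature and not from the gene table used here, which lists the locus alone. In plants, lysine is turned into a cyclic intermediate by the aminotransferase ALD1, and the reductase SARD4 converts that intermediate into pipecolic acid. The monooxygenase FMO1 then makes N-hydroxypipecolic acid, a mobile signal of systemic acquired resistance, the state in which leaves far from an infection become more resistant. Lysine itself is made from aspartate in plastids, the compartment that also holds photosystem I. SIS (AT5G02020) stands for Salt Induced Serine rich, a protein named for its serine content and for the response of its transcript to salt. Both genes lie on chromosome 5, with 4629 of that chromosome's 6331 protein-coding genes between them in the RefSeq gene table of assembly TAIR10.1, and so are not neighbours. The table holds 1 transcript for AT5G52810 and 2 for SIS. The sources used here do not say which transcript a probe covers.

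The deposited values are intensities on a linear scale that tops out at 100, a unit inferred from the values. Per array, the summed intensity was 2314 to 3460, and array medians lay between 0.172 and 0.347. Psag replicates 7 and 8 stood apart: their measurement correlated with the other 7 at 0.819 to 0.852 across probes, against 0.934 to 0.980 among those 7, and their array medians were 0.175 and 0.172. They are shown apart below. No gene was named for a probe of PSAG itself, so the genotype labels could not be checked by the transcript that is mutated. A value of an array is given as deposited unless it is called normalized, and normalized values are log2(intensity + 0.0407) after quantile normalization, which gives every array the same distribution of values.

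AT5G52810 was higher in psag on every array. The intensities of psag replicates 1 to 6 ran from a lowest of 5.10 through a median of 5.63 to a highest of 6.38, and psag replicates 7 and 8 were at 6.78 and 5.57. The WT arrays ran from 1.70 through a median of 1.80 to 1.93. The genotypes did not overlap: the dimmest psag array was far above the brightest WT array. All 64 pairings of a psag array with a WT array had psag higher. Arrays of neighbouring numbers were averaged as 1 measurement, so these pairings are not separate observations. On the deposited scale 1.92% of all probes had all 8 psag arrays above all 8 WT arrays. AT5G52810 is among these by the way it was chosen. Averaged over measurements, the intensity was 5.79 ± 0.50 in psag and 1.80 ± 0.09 in WT (SD, n = 4 each), a ratio of 3.21. On the deposited scale psag replicate 7 was the brightest psag array and replicate 8 lay within the range of replicates 1 to 6.

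On the deposited scale SIS was above every WT array on 7 of the 8 psag arrays, and the remaining 1 fell among the WT values. Psag replicates 1 to 6 had a lowest intensity of 0.375, a median of 0.509 and a highest of 0.622, while psag replicates 7 and 8 had 0.310 and 0.441. In WT the lowest was 0.159, the median 0.258 and the highest 0.329. Psag replicate 7 thus lay below WT replicates 7 and 8, at 0.328 and 0.329. Psag was higher in 62 of the 64 pairings of arrays, which again are not separate observations. The mean intensity was 0.477 ± 0.092 in psag and 0.259 ± 0.050 in WT (SD, n = 4 each), a ratio of 1.85. Replicates 7 and 8 were the dimmest psag measurement for SIS, whereas for AT5G52810 they were not.

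**Figure D1:**
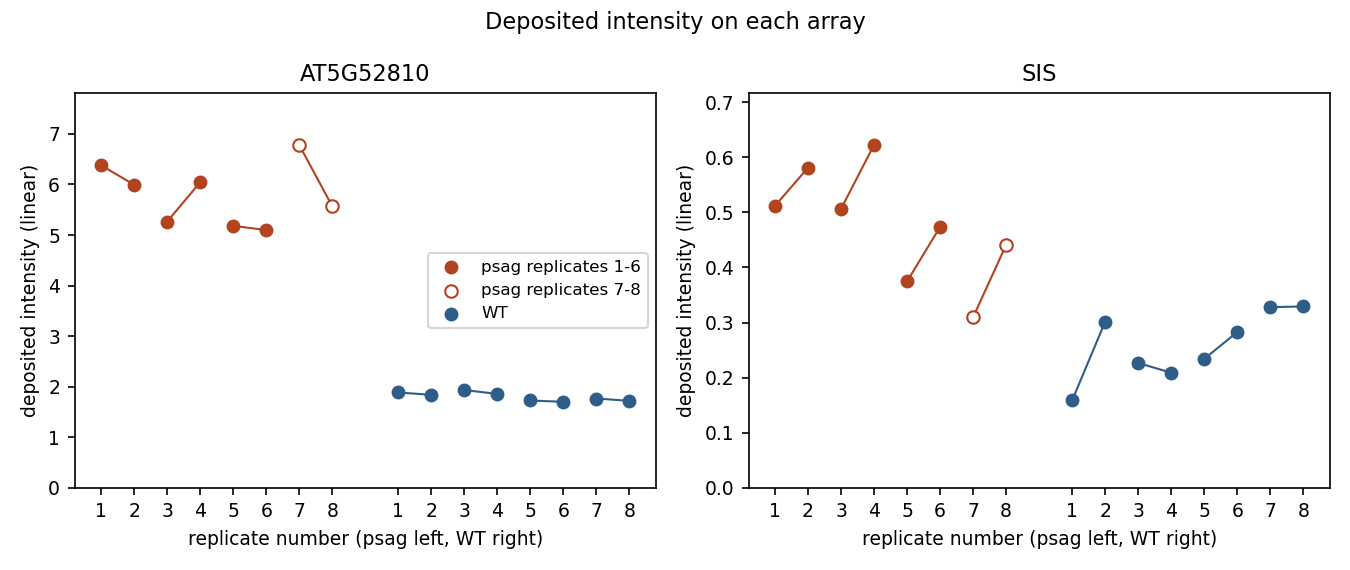
Deposited intensity (linear axis from 0) of AT5G52810 and SIS on each of the 16 arrays, psag on the left of each panel and WT on the right, with lines joining neighbouring replicates that were averaged. For AT5G52810 the psag arrays lie between 5.10 and 6.78 and the WT arrays between 1.70 and 1.93; for SIS, psag replicate 7 at 0.310 lies among the WT arrays, which reach 0.329.

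After normalization all 8 psag arrays lay above all 8 WT arrays for both genes, and for 1.92% of all probes. For AT5G52810 the psag measurements of replicates 1 and 2, 3 and 4, 5 and 6, and 7 and 8 were 2.58, 2.40, 2.35 and 3.06 on the log2 scale. The WT measurements in the same order were 0.88, 0.89, 0.90 and 0.78. The mean was 2.60 ± 0.32 in psag and 0.86 ± 0.06 in WT (SD, n = 4 each), a difference of 1.74 or 3.34-fold on the log2(intensity + pseudocount) scale. Replicates 7 and 8 were now the highest psag measurement. The difference was 1.58, or 3.0-fold, for psag replicates 1 to 6 (mean 2.44 ± 0.12 SD, n = 3, against the same WT mean), and 2.20, or 4.59-fold, for replicates 7 and 8.

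For SIS the psag measurements in the same order were -1.04, -1.03, -1.04 and -0.82, and the WT measurements were -1.66, -1.87, -1.71 and -1.76. The first 3 psag measurements almost coincided, with an SD of 0.0055, and replicates 7 and 8 lay above them. The mean was -0.98 ± 0.11 in psag and -1.75 ± 0.09 in WT (SD, n = 4 each), a difference of 0.77 or 1.70-fold on the log2(intensity + pseudocount) scale. It was 0.72 for psag replicates 1 to 6 and 0.93 for replicates 7 and 8. Single arrays agreed less closely than these averages: the 2 arrays of one psag measurement differed by 0.18 to 0.41. In WT the arrays of a measurement differed by 0.01 to 0.69, the last in replicates 1 and 2.

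**Figure D2:**
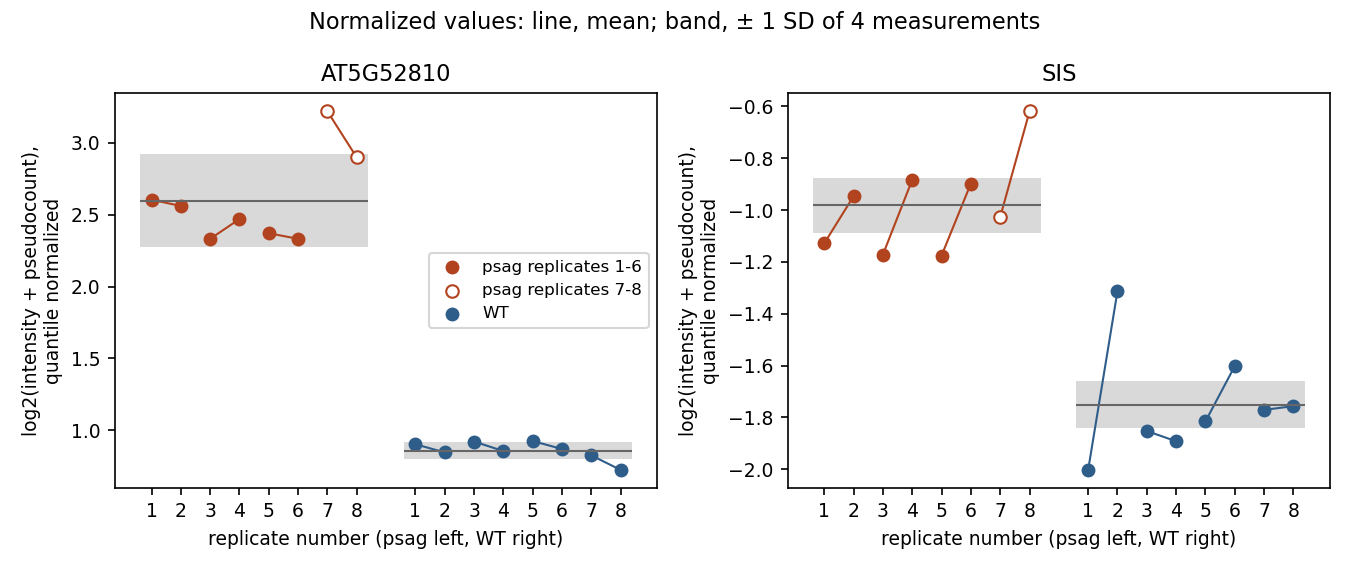
Quantile-normalized log2(intensity + pseudocount) of AT5G52810 and SIS on each array, psag on the left and WT on the right, with the mean (line) and SD (band) of the 4 measurements of a genotype. Psag replicates 7 and 8 average 3.06 for AT5G52810 and -0.82 for SIS, the highest psag measurement of each gene, and no psag array overlaps a WT array.

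Which array of a pair was the higher is given as a description, with 4 pairs per genotype. For SIS the even-numbered array was the higher in 4 of 4 psag pairs and 3 of 4 WT pairs. For AT5G52810 the odd-numbered array was the higher in 3 of 4 psag pairs and 4 of 4 WT pairs, by at most 0.32 in psag and 0.10 in WT. The labels do not say how the arrays of a pair differ. The order within pairs was not counted over all probes, and with so few pairs nothing is read from it.

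Where psag replicates 7 and 8 stood depended on the scaling. Their mean was above the WT mean under each scaling, but for SIS psag replicate 7 lay below WT replicates 7 and 8 as deposited and above every WT array after normalization. Quantile normalization raised SIS by 0.49 and 0.43 on psag replicates 7 and 8, and AT5G52810 by 0.45 and 0.41. It lowered SIS by 0.33 and 0.32 on WT replicates 7 and 8, whose medians of 0.339 and 0.336 were the highest of WT. With no normalization, the SIS difference for psag replicates 7 and 8 was 0.48 and that for replicates 1 to 6 was 0.90, the reverse of the normalized order. For AT5G52810 these differences were 1.75 and 1.62. Median centring kept the normalized order, with SIS differences of 0.97 for replicates 7 and 8 and 0.69 for replicates 1 to 6.

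**Figure D3:**
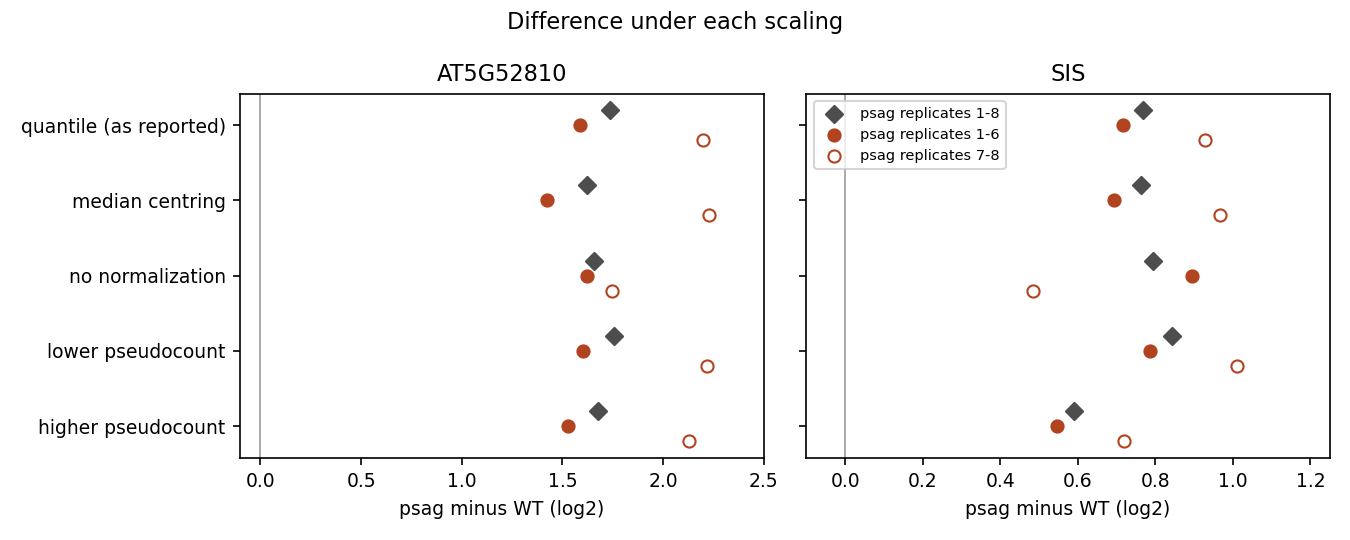
Difference of psag minus WT on the log2 scale for AT5G52810 and SIS under 5 ways of scaling (rows), for all psag replicates (diamonds), replicates 1 to 6 (filled circles) and replicates 7 and 8 (open circles). Every difference is above 0, and for SIS the open circle changes from the right of the filled one to its left, at 0.48, only without normalization.

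Deposited intensities can also be compared among arrays whose medians were alike, which applies no normalization but takes the array median as the guide. These sets were chosen after the values were seen. Psag replicates 1 to 4 had array medians of 0.334 to 0.347, and WT replicates 7 and 8 had 0.336 and 0.339. Among them SIS had 0.506 to 0.622 in psag and 0.328 to 0.329 in WT, a ratio of means of 1.69. Replicates 5 and 6 had medians of 0.239 to 0.245 in psag and 0.249 to 0.260 in WT, and there SIS had 0.375 and 0.473 in psag and 0.234 and 0.283 in WT, a ratio of 1.64. Psag replicates 7 and 8, with medians of 0.175 and 0.172, were nearest to WT replicates 1 and 2, with medians of 0.204 and 0.210. The medians of this set were thus less alike. Its summed intensities also differed, at 2314 and 2367 in psag and 3333 and 3362 in WT. SIS had 0.310 and 0.441 in these psag arrays and 0.159 and 0.302 in these WT arrays, a ratio of 1.63, and the dimmer psag array was just above the brighter WT array. For AT5G52810 the ratios in the same sets were 3.40, 3.0 and 3.32, and for both genes no psag array overlapped a WT array of its set. How many of all probes are separate in sets this small was not counted, so nothing is read from the lack of overlap.

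The ratio of same-numbered arrays varied more for SIS than for AT5G52810. For AT5G52810 psag over WT ran from 2.72 in replicate 3 to 3.84 in replicate 7, with a median of 3.25. For SIS it ran from 0.944 in replicate 7 to 3.22 in replicate 1, with a median of 1.80, and psag was the higher in 7 of 8 numbers. The numbers are not known to join the genotypes, so these ratios describe spread and are no paired test.

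Among the differences of all 3438 probes tested, that of AT5G52810 was exceeded by 10 probes and that of SIS by 147. Only 1 of the 691 single-gene probes exceeded AT5G52810. This was AT2G21530, named here after its values were seen. It was listed at 0 on 8 of 8 WT arrays and on 4 of 8 psag arrays, so no fold is given, and it did not pass (limma, adjusted p = 0.516). Both genes belong to the 9 probes called higher in psag by limma at an adjusted p threshold of 0.05, which is 0.262% of all probes. Neither was called after median centring, where 0 probes passed, or with a replicate block, where 0 probes passed as higher. The 4 psag measurements lay above the 4 WT measurements for 5.73% of all probes, and all 8 normalized psag arrays above all 8 WT arrays for 1.92%. AT5G52810 and SIS are among these, and among the 9 probes called, by the way they were chosen. The call is therefore no test of them, and nothing is read from it or from the lack of overlap. The median difference of all probes was 0.

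**Figure D4:**
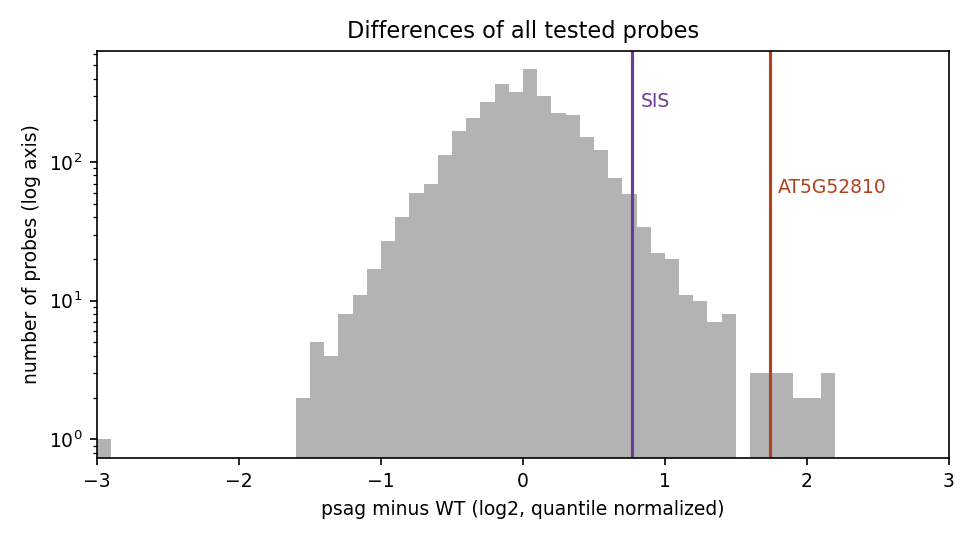
Number of probes (log axis) by difference of psag minus WT on the log2 scale, for all 3438 probes tested after quantile normalization, with AT5G52810 at 1.74 and SIS at 0.77 marked. AT5G52810 lies in the thin upper tail, beyond which there are 10 probes, and SIS lies on the shoulder, with 147 probes beyond it.

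After quantile normalization, SIS varied little between averaged measurements of either genotype, compared with probes of like WT level (within 0.5 on the log2 scale). AT5G52810 did so in WT but not over all psag measurements. The WT SD of AT5G52810, 0.06, was undercut by 6 of 198 such probes, whose median SD was 0.23. Its psag SD of 0.32 was undercut by 79 of the 198, whose median was 0.41. Over psag replicates 1 to 6 its SD was 0.12, against a median of 0.18. For SIS the WT SD of 0.09 was undercut by 36 of 836 probes of like level, with a median of 0.30, and the psag SD of 0.11 by 26 of 836, with a median of 0.39. All these SDs are of averaged pairs. Over single normalized arrays the SD was 0.19 in psag and 0.21 in WT for SIS, and 0.31 and 0.07 for AT5G52810. The SDs of averaged pairs also depended on the scaling. For SIS they were 0.27 in psag and 0.24 in WT without normalization, and 0.14 and 0.10 with median centring. For AT5G52810 they were 0.12 in psag and 0.07 in WT without normalization, and 0.42 and 0.30 with median centring. Probes of like level were not compared under these scalings or over single arrays. A small spread raises the rank of a probe in the fit that led to the choice of these genes, so it is given as a description.

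A second probe lists SIS together with another pair of loci, and its signal cannot be assigned to any of them. Its log2 difference of 0.50 ± 0.13 (SE, n = 4 each; psag minus WT) missed the threshold (limma, adjusted p = 0.195). Its intensity ran from 0.189 through a median of 0.243 to 0.363 in psag, and from 0.077 through 0.170 to 0.212 in WT. The genotypes overlapped on this probe, with 5 of 8 psag arrays above every WT array.

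The remaining genes of the pathways of AT5G52810 and SIS were mostly not measured by a probe of their own. Of the 5 listed genes of pipecolate and N-hydroxypipecolate metabolism, AT5G52810 was the 1 with its own probe, so ALD1, FMO1, the lysine-degrading enzyme LKR/SDH and the glucosyltransferase UGT76B1 were not analysed here. Of 24 genes of salicylic acid synthesis, its signalling and systemic acquired resistance, 0 had their own probe. Of 24 salt, drought and abscisic acid genes, SIS was the 1 that did, and 1 more, COR15A, was on a probe shared with other genes. All 5 lists fixed for these pathways and for plastid antioxidant enzymes hold 79 genes other than AT5G52810 and SIS. Of the 79, 8 were only on probes shared with other genes and 3 had their own probe. Of these 3, 0 were called higher and 0 lower by limma at the adjusted p threshold, where 0.320% of all probes were called in either direction, and 0 had an unadjusted limma p under 0.05, which 12.7% of all probes had.

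Of the 14 genes that lead from aspartate to lysine, the precursor of pipecolic acid, only AT3G53580 had its own probe. On probes shared with other genes there were 4 more, which were not analysed here. AT3G53580 is the locus of diaminopimelate epimerase, a late step of that route. Its intensity ran from 0.041 through a median of 0.097 to 0.349 in psag and from 0.045 through 0.126 to 0.302 in WT, so the genotypes overlapped widely. The difference was -0.11 ± 0.39 (SE, n = 4 each) on the log2 scale (limma, adjusted p = 0.956).

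Of 14 plastid antioxidant enzymes, 2 had their own probe, and 3 more were only on probes shared with other genes. NTRC, the NADPH-dependent thioredoxin reductase C that keeps plastid peroxiredoxins reduced, had intensities from 0.135 through a median of 0.434 to 0.538 in psag and from 0.327 through 0.404 to 0.528 in WT. Its difference was -0.22 ± 0.17 (SE, n = 4 each; limma, adjusted p = 0.665), and the lowest values were psag replicates 7 and 8, at 0.135 and 0.192. The peroxiredoxin gene AT3G52960 (PRXIIE) ran from 0.047 through 0.093 to 0.187 in psag and from 0.020 through 0.085 to 0.188 in WT. Its difference was -0.06 ± 0.39 (SE, n = 4 each; limma, adjusted p = 0.993).

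Markers could say little about the tissue, which the labels do not name. Of 4 senescence, 4 seed and 4 root markers 0 had their own probe, and of 6 markers of photosynthetic leaf only PRK did. Among the leaf markers 1 more was only on a shared probe. PRK, the Calvin cycle enzyme phosphoribulokinase, was above 0 on all arrays, with 0.323 through a median of 0.449 to 0.559 in psag and 0.516 through 0.756 to 1.62 in WT. Its difference of -0.72 ± 0.28 (SE, n = 4 each) did not pass (limma, adjusted p = 0.355). The part of tissue makeup in the values of AT5G52810 and SIS was not tested, and in these samples more cells with the transcript and more transcript per cell cannot be told apart.

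The pattern of each gene over the 16 arrays was set beside those of 569 other single-gene probes that were above 0 on at least 12 arrays, with Pearson's r of the normalized values as the measure of likeness. These r values follow from the step between genotypes, the shared normalization and the neighbouring arrays, and are a description without a test. AT1G28150, for which the gene table gives no function, was the most alike to both, with r = 0.94 to AT5G52810 and r = 0.90 to SIS. AT5G52810 and SIS came second in each other's order, with r = 0.89. Of all 2865 probes compared in the same way, with or without a single gene, 21 were more alike to AT5G52810 than SIS was. For SIS, 3 were more alike than AT5G52810 was. Among the single-gene probes, without normalization SIS ranked 9 for AT5G52810 and AT5G52810 ranked 10 for SIS. Without psag replicates 7 and 8, AT1G28150 ranked 8 and SIS 9 for AT5G52810, while the first 2 genes in the order of SIS kept their ranks. The further genes were AT5G66780, AT4G30680 and AT3G16760 for AT5G52810, with r = 0.89, 0.88 and 0.88. For SIS they were the histone H3.1 gene AT5G65360, ATSPS4F of the sucrose phosphate synthase family and PSAN, a lumenal subunit of photosystem I, with r = 0.84, 0.82 and 0.79. Because histone H3 copies are nearly the same in sequence, the probe of AT5G65360 may also report its relatives.

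The likeness of AT5G52810 and SIS was low within genotypes. With each genotype's mean taken out, r between them was 0.18 over 16 arrays and -0.07 over the 14 arrays without psag replicates 7 and 8. For AT5G52810 and AT1G28150 these values were 0.61 and -0.19, so the positive value was seen only with replicates 7 and 8. For AT5G52810 and AT3G16760 they were 0.69 and 0.53, and for SIS and AT1G28150 0.48 and 0.37. The r of PSAN to SIS was 0.79 after normalization and 0.41 without it.

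The genes named for likeness had intensities as follows. AT1G28150 ran from 0.235 through a median of 0.281 to 0.318 in psag and from 0.071 through 0.105 to 0.149 in WT, with no overlap. PSAN ran from 4.36 through 5.54 to 6.53 in psag and from 1.85 through 3.53 to 3.89 in WT, also with no overlap. AT4G30680 ran from 0.531 through 0.601 to 0.691 in psag and from 0.268 through 0.335 to 0.421 in WT, again without overlap. These 3 genes were separate between genotypes on the deposited scale, where SIS was not. On that scale all 8 psag arrays lay above all 8 WT arrays for 1.92% of all probes. For AT5G66780, AT5G65360 and ATSPS4F 7 of 8 psag arrays lay above every WT array, and for AT3G16760 6 of 8 did. On the log2 scale their normalized differences ran from 0.49 for ATSPS4F to 1.03 for AT1G28150. They were chosen for likeness to genes that had been picked on this contrast, so no test is given for them.

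Within 10 protein-coding genes on either side, AT5G52810 had 0 neighbours with a probe of their own and SIS had 2. Both of these, AT5G01960 and AT5G02050, were listed at 0 on 8 of 8 psag and 7 of 8 WT arrays, so the surroundings of either gene could not be compared.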

How the data were processed

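The deposited file holds intensities of 3439 probes on 16 arrays; their unit was inferred from the values, and the authors' scanning, background correction and scaling are not given in the sources used here. GEO's platform annotation gave the probes' genes (692 with 1 gene, 870 with several, 1877 with none), of which 690 matched the RefSeq gene table. Genes, lists and averaging were chosen with earlier results of these data known. Intensities were taken as log2(intensity + 0.0407), the pseudocount being the 5th percentile of positive values, and quantile normalized. Such fold changes understate those of dim probes. One of 2 probes of 1 locus, the brighter, was kept, leaving 3438. Neighbouring numbers were averaged, although their deviations correlated at only -0.12 in the least alike WT pair. The comparison of psag with WT used limma 3.58.1 under R 4.3.3 (lmFit, eBayes, Benjamini-Hochberg over all probes, threshold 0.05). Its p-values rest on the spread of these measurements, and that spread may be technical. The fit was also run on simulated data, where 63% of changes of 1 and 90% of changes of 2 on the log2 scale were recovered, with 7 false calls. The simulation gave both genotypes the WT spread, although the median SD was 0.37 in psag and 0.29 in WT, so it does not match these data. AT5G52810 and SIS were above 0 on all 16 arrays. Named genes were both of these, listed genes with their own probe, and for each the 5 most alike single-gene probes. Same-numbered measurements deviated together across genotypes at 0.051, 0.108, 0.166 and 9.6e-04, so the numbers were not taken to pair them. The number of arrays limits the precision.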

Additional observations from a re-analysis of the deposited data

Results flagged for a closer look

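A sample far from the others was looked for in 26 groups of 4 measurements, those of AT5G52810, SIS and the other genes named. Chance alone gives such a sample in about 1 in 20 groups, and 3 of the 26 held one. In psag, the SIS measurement of replicates 7 and 8 was at -0.82 and the other 3 at -1.04 to -1.03, a gap of 0.954 of the range. That gap was 0.777 after median centring and 0.308 without normalization, both under the critical value, so it depended on the scaling. In WT, AT1G28150 was at -2.43 in replicates 1 and 2 and at -2.79 to -2.76 in the others, a gap of 0.917. In WT, PSAN was at 0.91 in replicates 7 and 8 and at 1.75 to 1.77 in the others, a gap of 0.968. AT5G52810 came closest without reaching the critical value, with a gap of 0.813 for WT replicates 7 and 8.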

How the results depend on the processing

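The difference of AT5G52810 stayed between 1.62 and 1.76 under 7 alternatives and between 1.59 and 1.82 when 1 array or 1 pair was left out. That of SIS was 0.59 with the higher pseudocount of 0.156 and 0.76 to 0.84 under the other 6, and 0.68 to 0.85 when arrays or pairs were left out. The 7 include the replicate block and the 16 separate arrays, neither of which can move a mean difference here. One alternative, arrays matched by median, was chosen after seeing the data and gave 1.65 and 0.83. For psag replicates 1 to 6, AT5G52810 was at 1.42 with median centring, and SIS at 0.79 with the lower pseudocount of 0.0086, 0.55 with the higher and 0.90 without normalization. For replicates 7 and 8, AT5G52810 was at 2.13 with the higher pseudocount and 1.75 without normalization, and SIS at 0.72 and 0.48. The count of 11 probes past the threshold was 6 with the lower pseudocount, 0 with median centring, 330 with 16 separate arrays, 113 with the pair as a random effect, 2 without probes listed at 0 throughout, 3 without the dimmest 25% and 4 with limma-trend. With a replicate block that joins same-numbered averages across genotypes it was 1 (0 higher, 1 lower), so AT5G52810 and SIS were not called, as with median centring. Neither such a block nor taking 16 separate arrays can move a mean difference in a balanced design. The values of 1.74 and 0.77 under both are thus no sign of stability. Leaving out 1 array gave 3 to 13 probes and leaving out 1 pair 0 to 82, with 82 without psag replicates 7 and 8. The count was 0 without WT replicates 1 and 2, 5 and 6 or 7 and 8, and without psag replicates 1 and 2. Neither gene was called in those fits. Single arrays that moved it by over 1.5 times were psag replicate 7 (3 probes without it), WT replicates 1 and 4 (5 without either) and WT replicate 8 (7). The count of listed genes past the threshold was 0 throughout. The causes were not tested. Depth, as signal over background, is unknown here.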
